A study of Rattus norvegicus with 6 samples.

Results

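The rat genes Snord116 and Snord115 encode small nucleolar RNAs (snoRNAs) that lie as tandem repeats in the Prader-Willi syndrome (PWS) domain, and every row of the deposited expression table with either name was taken. The 95 copies found, 36 of Snord116 and 59 of Snord115, are among 32900 features in all, and they were selected by name alone. Total RNA came from cells of the rat insulinoma line INS-1(832/13)::mCherry, a beta-cell model that secretes insulin and carries a fluorescent reporter in its insulin granules, grown in 7.5 mM glucose without treatment. The 3 control lines (5-9, 2 and 16) lack the domain on the silent maternal allele and keep the active paternal one, and the 3 PWS lines (3, 19-1 and 19-4) lack it on both alleles. The comparison asks what the loss of the paternally expressed domain does to beta cells, and for these copies it asks whether any of their RNA is left. Each line gave 1 library. Lines 2 and 16 and all PWS lines were isolated as clones from line 5-9, and the PWS group represents 2 deletions of the paternal allele, since 19-1 and 19-4 were both cloned from line 19, whereas line 3 has another, more extended proximal breakpoint. P-values here measure the spread between these lines only.

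Box C/D snoRNAs are short RNAs cut from introns. They are named for a pair of short sequence boxes near their ends, to which a core of proteins binds, and most of them guide methylation of ribosomal RNA by base pairing. Snord116 and Snord115 are orphan snoRNAs with no known ribosomal RNA target. They are processed from the introns of a long transcript that starts at Snurf-Snrpn and is made only from the paternal chromosome, loss of Snord116 is linked to the main features of PWS, and Snord115 is chiefly known from brain, where it can pair with the mRNA of the serotonin receptor Htr2c. The repeats of a family are so alike that a short sequencing read often fits several copies equally well.

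The sequences of the individual copies were not used here. To show the boxes by which the families are recognised, the study's RT-PCR primers for the 4 snoRNAs of the domain are given, each 5′ to 3′, with the letters ATGATGA, which lie in box C, in capitals in the forward primers, and the letters TCAG, the complement of box D, in capitals in the reverse primers that hold them. Snord107 has a second reverse primer, which does not.
Snord116 forward: ggatcgATGATGAtttccaataaa
Snord116 reverse: cTCAGtcacgatgatagtggc
Snord115 forward: gtcaATGATGAcaacattaag
Snord115 reverse: ggccTCAGcgtaatcctatt
Snord107 forward: ATGATGAcatgggaccttgtc
Snord107 reverse: attTCAGagtcactctaagctc
Snord107 second reverse: gtgaggcacattgactagat
Snord64 forward: aATGATGAgctgtgtttactg
Snord64 reverse: ctTCAGagtaattattttgagc
Outside these letters the primers differ from each other. Both motifs were searched on the printed strand of each of the 137 primers in the study's primer list. Of these 4 (2.92%) hold ATGATGA, and these are the 4 forward primers above, whereas 21 (15.3%) hold TCAG.

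The deletions were made with guide RNAs on either side of the repeats, and their targets are shown because they mark the stretch meant to be deleted. In line 3 the proximal end of the paternal deletion lies at an alternate sgRNA70-3 site further out, whose sequence is not shown. Target sequences are 5′ to 3′ in lower case, without the cloning overhang, and their genome positions were not analysed here.
sgRNA1, 5′ of Frat3: gtcagtgtgttattgctctg
sgRNA70-3, 5′ of Frat3: gcttgtatgaatccctctgg
sgRNA3, between Snord115 and Ube3a: tacttatgacaattaacctc
sgRNA79-1, between Snord115 and Ube3a: gccaggtacaggtagttcac
The pair sgRNA70-3 and sgRNA79-1 lies inside the pair sgRNA1 and sgRNA3 and was used for the paternal allele. Both distal guides cut between the Snord115 repeats and Ube3a, the gene on the far side of the domain. In RefSeq's annotation of the later rat assembly GRCr8, 319 unnamed snoRNA genes lie between Ube3a and Snord64, with a median length of 93 bases and a range of 75 to 95. That annotation does not name these genes by family and was not matched to the 95 copies, so the number of copies here is that of the annotation the authors used.

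Values are normalized counts, that is reads divided by the size factor of the library. In the main table a read that aligned to several places was counted at each of them (nonunique all), in a second table such reads and those overlapping several features were left out (nonunique none), and in the remaining table the RSEM program shared them out by likelihood. Reads behind the values could be recovered from the first 2 tables, with 26016478 to 36084261 counted reads per line under nonunique all and 17530149 to 23022637 under nonunique none. Reads kept by nonunique none counting, which aligned to 1 place and overlapped 1 feature, are called unambiguous below, and the tables do not separate reads dropped for several places from reads dropped for several features. A count of 0 allows up to 3 reads in a library, which is 2.73 to 3.59 normalized counts depending on the line. Such limits and the 95% Poisson intervals below cover counting error only. The beta-cell markers were present in all lines (9 of 9), with summed levels of 482810 to 559493 in control and 252282 to 454207 in PWS lines, and 0 of 9 passed the test by limma, edgeR or DESeq2, with 3 at an unadjusted limma p under 0.05, as were 11.3% of all features tested (adjusted calls in either direction were 0.257%, 0.205% and 1.47% in the order of the tools). The paper reports lower Iapp in PWS lines by RNA-seq, and lower Ins1, Ins2 and Iapp by RT-ddPCR, so the lack of a call here does not mean an equal level. Of 5 markers of other islet cells, 4 had a read, with sums of 5.51 to 27.5 in control and 19.1 to 124 in PWS lines, and Sst was at 0 in every line. The immune marker Ptprc was also at 0, the acinar (3), ductal (2) and fibroblast (2) lists had sums of at most 26.3, and the neuron list (3 genes) lay at 3627 to 4352 in control and 4050 to 4989 in PWS lines. In these bulk libraries fewer cells of a type and less RNA per cell cannot be told apart, and the part of these marker levels in the results was not tested.

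All 95 copies were at 0 in every PWS line in each of the 3 tables, with no read counted. In control lines the Snord116 copies summed to 2199.9 normalized counts in line 5-9, 1677 in line 2 and 3043 in line 16 under nonunique all counting. The Snord115 copies summed to 128, 114.7 and 149. All control lines therefore had reads at both families and the groups did not overlap. Because a read can be in the nonunique all sum several times, the fold was taken from the unambiguous reads. There the sums of Snord116 were 339.9 in line 5-9 (95% interval 306 to 377), 277 in line 2 (246 to 309.8) and 366 in line 16 (329 to 406). Against the limit of 3 reads in each PWS line, Snord116 was at least 105-fold lower in PWS lines by these reads. For Snord115 the sums were 43.7 (32.0 to 58.2), 40.3 (29.3 to 54.1) and 43.1 (31.1 to 58.3), and the family was at least 13.6-fold lower. No bound was taken from the nonunique all sums, and the bounds of single copies below also rest on unambiguous reads. The exact two-sided permutation test gave p = 0.1 for each family, the smallest p that 3 lines against 3 allow.

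**Figure D1:**
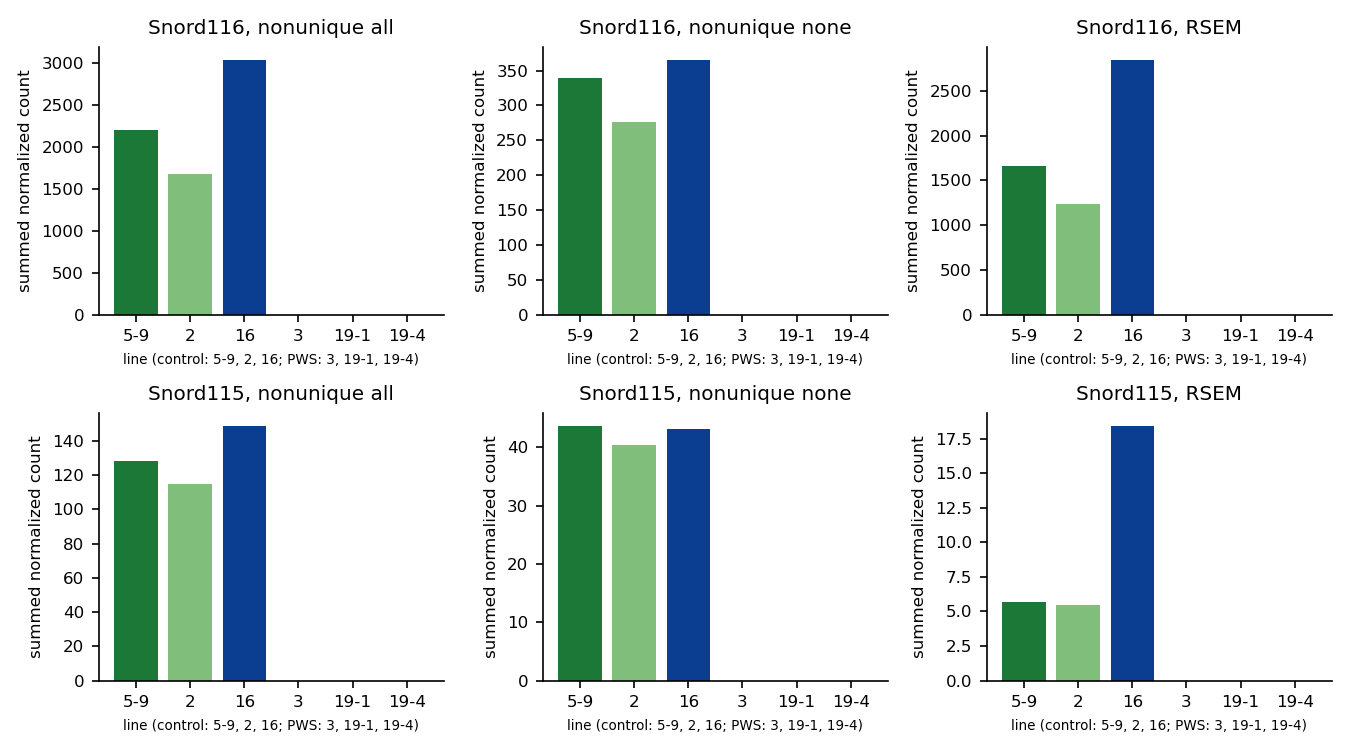
Summed normalized counts of the 36 Snord116 copies (top) and 59 Snord115 copies (bottom) in each line, 1 bar per library, under nonunique all counting (left), nonunique none counting (middle) and RSEM (right); the scales differ between panels. The 3 PWS lines are at 0 in each panel, and control line 16 stands above the other control lines in the left and right panels (3043 and 2851 for Snord116), but not in the unambiguous reads of Snord115 (43.1, beside 43.7 in line 5-9).

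Not every annotated copy was seen in the control lines. Of the 36 Snord116 copies, 27 exceeded 3 reads in some control line, 3 had a read without passing that limit and 6 had none. Of the 59 Snord115 copies, 13 passed the limit, 26 had a read without passing it and 20 had none. For the 55 copies at or under the limit, an absence from PWS lines is not detectable at this depth. Nearest the limit on the upper side was the Snord116 copy ENSRNOG00000056157, with 3 reads in line 5-9, 1 in line 2 and 4 in line 16. Below it in level came ENSRNOG00000053918, with 1 read in line 5-9 alone. Among Snord115 copies, ENSRNOG00000053938 stayed at the limit with 3, 3 and 2 reads, all 8 of them unambiguous.

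The comparison of the groups feature by feature used limma on log2(normalized count + 1), over the 15579 features with a mean of at least 5 in the 6 lines, with adjusted p-values under 0.05 as the threshold. Of these features 0.25% were called lower in PWS lines. Of the members, 19 Snord116 and 5 Snord115 copies passed the filter, and the other 71 were too low to be tested. A copy that is at 0 in every PWS line could pass only through its control values, so it had to differ, and the counts that follow describe the copies and support nothing further. By limma 18 of the 19 Snord116 copies and 5 of 5 Snord115 copies were lower. With DESeq2 on the recovered reads all 24 tested copies were lower (0.784% of all features tested), and with edgeR's quasi-likelihood test 15 Snord116 and 2 Snord115 copies were (0.199%). In 9.01% of all features tested every PWS line lay below every control line. The median log2 fold change was -5.11 for the tested Snord116 copies and -4.03 for the Snord115 copies, beside -0.0028 over all features tested. These fitted values depend on the added 1 and are not bounds.

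**Figure D2:**
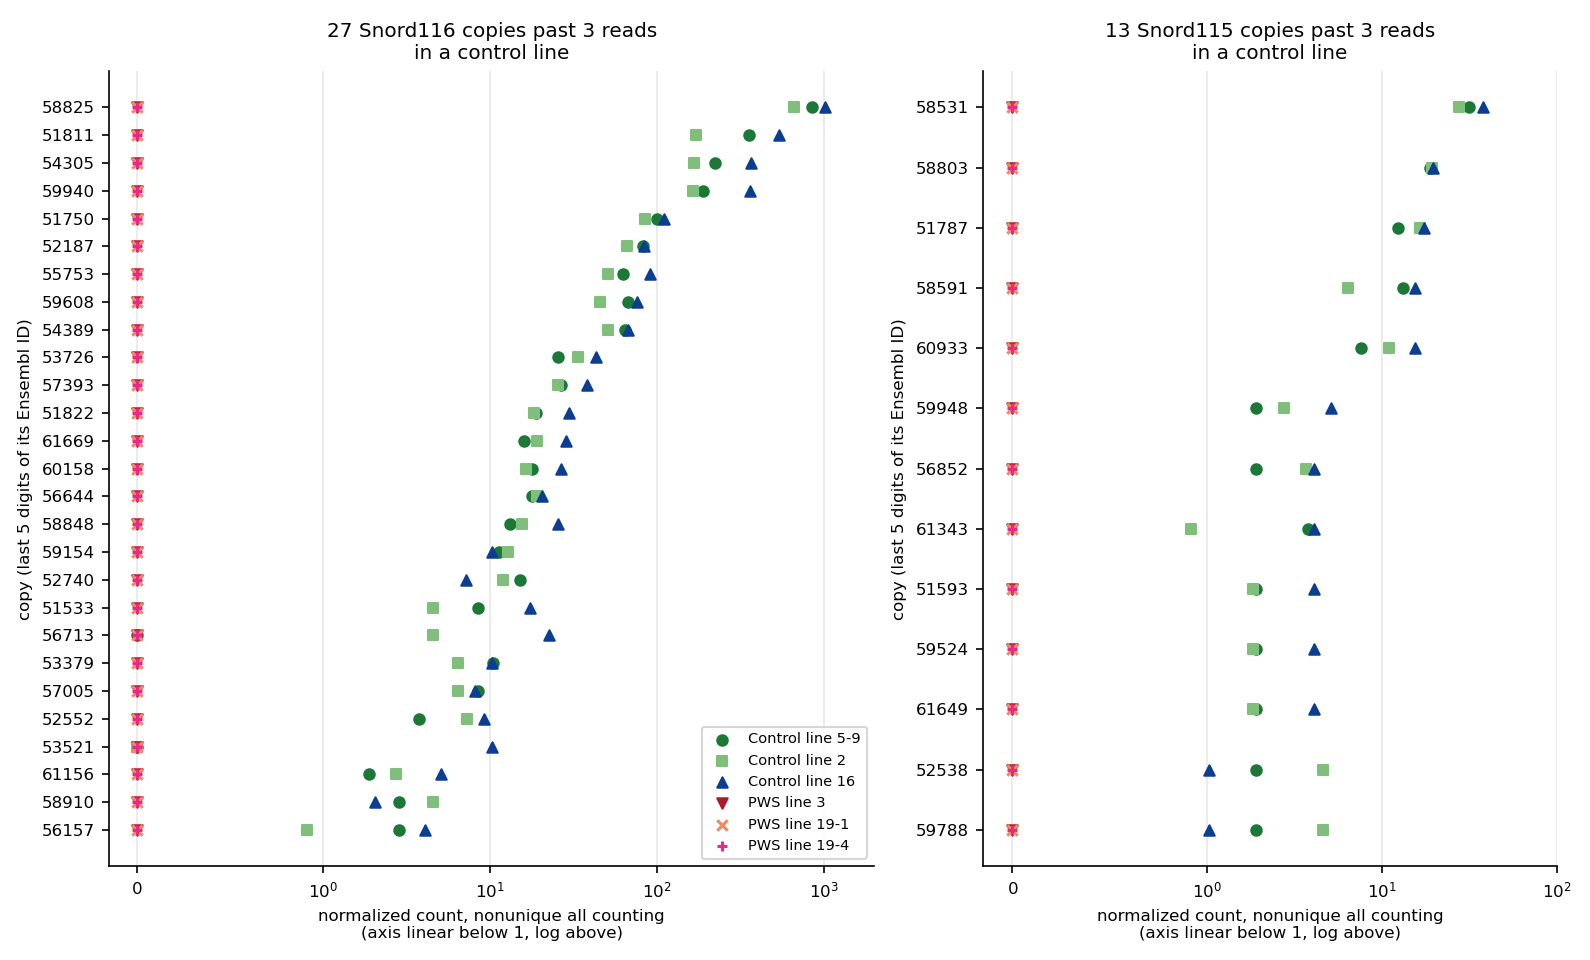
Normalized counts (nonunique all counting; axis linear below 1, log above) of the 27 Snord116 copies (left) and 13 Snord115 copies (right) with more than 3 reads in a control line, ordered by their control mean, with 1 marker per line. All PWS markers lie at 0, and the control values fall from 1025 for the highest Snord116 copy to 0 in some control lines of low copies, such as line 5-9 of ENSRNOG00000056713.

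The highest copy of Snord116 was ENSRNOG00000058825, with 847 normalized counts in line 5-9, 660.0 in line 2 and 1025 in line 16. Its 95% intervals of 792 to 904, 613 to 710.0 and 962 to 1091 did not overlap, but each line is 1 library and these intervals hold counting error alone. The unambiguous values of this copy were closer, at 225, 199 and 258 in the same lines. By these reads the copy was at least 72.7-fold lower in PWS lines (limma on the nonunique all values: log2 fold change -9.70, standard error 0.24, adjusted p = 1.42e-06). It held 38.5%, 39.4% and 33.7% of the Snord116 sum in lines 5-9, 2 and 16. Of its 2609 reads in control lines, 705 (27.0%) were unambiguous.

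ENSRNOG00000051811 came next in level, with 356 normalized counts in line 5-9, 173 in line 2 and 538 in line 16 (log2 fold change -8.33, standard error 0.41, limma adjusted p = 3.16e-05). Only 7 of its 1087 control reads (0.644%) were unambiguous, so its own reads allow no fold bound, and to which feature the others belong cannot be read from these tables. ENSRNOG00000054305, with 225, 167 and 368, and ENSRNOG00000059940, with 189.9, 165 and 363, had unambiguous shares of 1.16% and 0.409%. Both were called lower (limma adjusted p = 2.62e-05 for each), again with no bound from their own reads. Together these 4 copies held 73.4% of the Snord116 sum over the control lines. The first of them lay above the second in 3 of 3 control lines with no overlap of their ranges. The second lay above the third, and the third above the fourth, in each line as well, but their ranges over lines overlapped.

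A middle group followed. ENSRNOG00000051750 had 101, 85.4 and 111 normalized counts in lines 5-9, 2 and 16, ENSRNOG00000052187 had 82.6, 66.1 and 84.2, and ENSRNOG00000055753 had 62.7, 51.4 and 91.4. ENSRNOG00000059608 had 67.4, 45.9 and 76.0. These 4 were called lower in PWS lines, with limma adjusted p between 2.62e-05 and 8.63e-05. By unambiguous reads ENSRNOG00000051750 was at least 7.21-fold and ENSRNOG00000059608 at least 13.5-fold lower, and the other 2 allowed no bound. In all 4 line 2 had the lowest value and line 16 the highest, and the ranges of the last 3 overlapped, so their order is not settled by these lines. They differed in the share of unambiguous reads. Of the 241 control reads of ENSRNOG00000052187 none was unambiguous, whereas 131 of 195 (67.2%) were at ENSRNOG00000059608. ENSRNOG00000054389, with 64.6, 51.4 and 67.8, had a range that overlapped with that of ENSRNOG00000059608 and belongs with these copies by level.

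The other tested Snord116 copies followed without overlap with ENSRNOG00000054389, down to a control mean of 10.2 for ENSRNOG00000051533. That copy, with 8.55 normalized counts in line 5-9, 4.59 in line 2 and 17.5 in line 16, was the 1 tested copy that limma did not call (log2 fold change -3.31, standard error 0.56, adjusted p = 0.113). DESeq2 called it (adjusted p = 0.0223) and edgeR did not (adjusted p = 0.267). A few low copies were seen mainly in 1 line. ENSRNOG00000056713, chosen after its values were seen, had 0 reads in line 5-9, 5 in line 2 and 22 in line 16, and ENSRNOG00000053521, also chosen so, had 0, 0 and 10. None of the reads of these copies was unambiguous.

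Snord115 copies were all low in these total RNA libraries. The counts do not separate mature snoRNA from the host transcript. Small RNA-seq, which the study also ran and which covers snoRNAs, was not analysed here. The highest, ENSRNOG00000058531, had 31.3 normalized counts in line 5-9, 27.5 in line 2 and 38.0 in line 16, and was at least 4.89-fold lower in PWS lines by unambiguous reads (log2 fold change -5.05, standard error 0.37, limma adjusted p = 0.000415). It held 24.4%, 24.0% and 25.5% of the Snord115 sum. ENSRNOG00000058803 had 19.0, 19.3 and 19.5, and ENSRNOG00000051787 had 12.3, 16.5 and 17.5. By unambiguous reads they were at least 1.04-fold and 3.50-fold lower. The call of ENSRNOG00000051787 was lost with edgeR (adjusted p = 0.0502) and in limma without control line 16 (0.0518). ENSRNOG00000058591, with 13.3, 6.43 and 15.4, and ENSRNOG00000060933, with 7.60, 11.0 and 15.4, were called by limma (adjusted p = 0.0290 and 0.0220), but not by edgeR (0.192 and 0.146). Both limma calls were also lost when lines 19-1 and 19-4, from 1 clone, were averaged (adjusted p = 0.123 and 0.0902), when any 1 PWS line was left out (0.0748 to 0.140 and 0.0643 to 0.106), and without control line 5-9 (0.162 and 0.0706) or 16 (0.175 and 0.151), and that of ENSRNOG00000060933 without line 2 (0.0862). With a pseudocount of 5 their limma adjusted p-values were 0.120 and 0.0856. By unambiguous reads the bound of ENSRNOG00000058591 was 1.16-fold, and ENSRNOG00000060933 allowed none. The first 2 Snord115 copies stood apart from their neighbours in every control line, and the ranges of the third, the fourth and the fifth overlapped. The other 8 copies past the limit had control means of 2.51 to 3.26, close to the limit that 0 reads allow.

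The level of Snord116 was higher than that of Snord115 in every control line. The sums differed 17.2-fold in line 5-9, 14.6-fold in line 2 and 20.4-fold in line 16 under nonunique all counting, and 7.78-fold, 6.86-fold and 8.48-fold by unambiguous reads. With RSEM the ratio was 291, 225 and 155. So the order of the families held in all 3 tables, and the size of the gap did not. The lengths of the copies are not in the files, so these ratios are of counts and not of counts per length.

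The picture of individual copies depended on how reads were assigned. Over the 27 Snord116 copies past the limit, the median share of unambiguous reads was 0%, with 15 copies that had none and 2 above 50%. The largest share was 80.0%, at ENSRNOG00000058910, on 8 of only 10 reads. Over the 13 Snord115 copies the median was 11.1%, with 6 copies at 0 and ENSRNOG00000051787 the highest at 70.8% (34 of 48 reads). Restricted to the tested copies, 13 of 19 Snord116 copies (68.4%) had under 10% unambiguous reads, while 11.4% of all features tested and 20.4% of 147 tested snoRNAs outside the domain did. No tested Snord115 copy was under 10%.

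**Figure D3:**
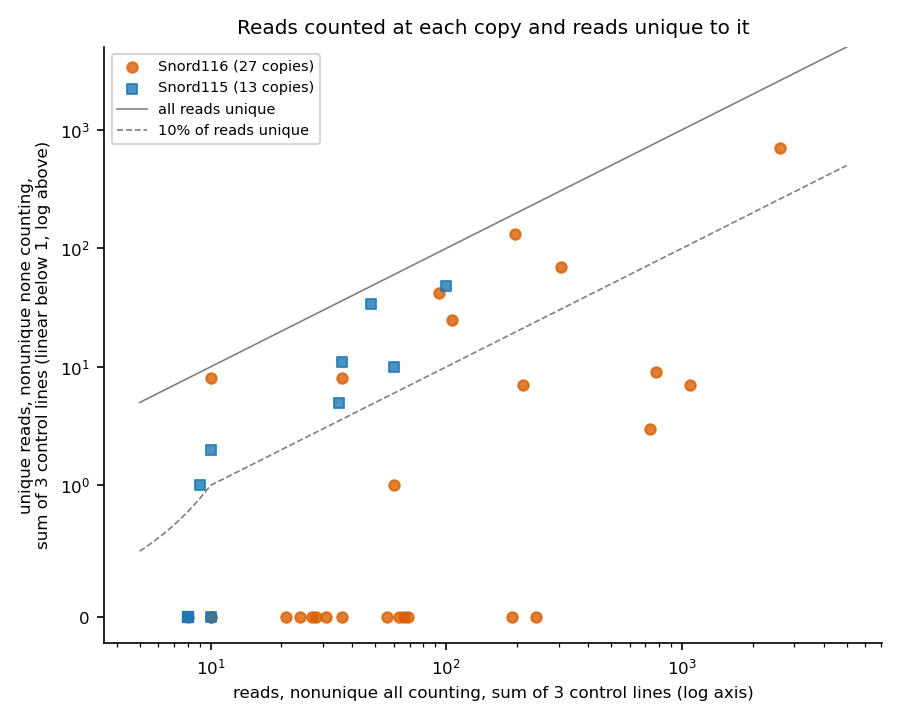
For each of the 27 Snord116 and 13 Snord115 copies past the limit, the reads summed over 3 control lines under nonunique all counting (x axis, log) and nonunique none counting (y axis, linear below 1, log above), with lines where all or 10% of the reads are unambiguous (labelled unique). The highest copy has 705 unambiguous reads of 2609, while the 3 copies next in level have 3 to 9.

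By unambiguous reads the families shrank to few copies. Only 10 Snord116 and 4 Snord115 copies had more than 3 unambiguous reads in a control line, in place of 27 and 13. ENSRNOG00000058825 then held 66.2%, 71.9% and 70.5% of the Snord116 sum in lines 5-9, 2 and 16, with 225, 199 and 258 normalized counts. ENSRNOG00000059608 was next, with 43.7, 35.7 and 47.2, although it stood behind 7 other copies when reads were counted everywhere. ENSRNOG00000051811 fell to 1.90, 0 and 5.13. Among Snord115 copies, ENSRNOG00000058531 kept the highest unambiguous level in lines 5-9 and 2 (16.1 and 17.4), followed by ENSRNOG00000051787 (10.4 and 10.1). In line 16 both stood at 12.3.

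RSEM gave yet another picture. It assigned exactly the same value to the 4 highest Snord116 copies, 398 in line 5-9, 299 in line 2 and 693 in line 16, so that they made up 96.8% of its Snord116 sum. It also gave 1 value to ENSRNOG00000051822, ENSRNOG00000052552, ENSRNOG00000060158 and ENSRNOG00000061669 (7.90, 4.07 and 11.6), and 1 value to 6 Snord115 copies (0.948, 0.915 and 3.07), which were its whole Snord115 sum. ENSRNOG00000059608, with 131 unambiguous reads, was listed at only 2.96, 2.04 and 3.17 by RSEM. Equal counts also occurred under nonunique all counting, where the Snord115 copies ENSRNOG00000051593, ENSRNOG00000059524 and ENSRNOG00000061649 each had 2, 2 and 4 reads, and ENSRNOG00000052538 and ENSRNOG00000059788 each had 2, 5 and 1. Whether such copies shared the same reads was not tested.

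The control lines differed from each other in Snord116. Line 16 had the highest value in 17 of the 19 tested copies and line 2 the lowest in 13. Relative to line 5-9, the tested copies had a median ratio of 1.46 in line 16 (range 0.473 to 2.04) and 0.848 in line 2 (0.485 to 1.32). Over all features tested with reads in each control line, the medians were 1.00 and 1.00, with 90% of the ratios between 0.732 and 1.52 for line 16 and between 0.645 and 1.66 for line 2. The Snord116 ratios of line 16 thus lay toward the upper end of the range of other features. Copies can share reads under nonunique all counting, so they are not taken as separate measurements of this difference. Line 16 was also the highest in 5 of the 5 tested Snord115 copies, with a median ratio to line 5-9 of 1.21 (range 1.03 to 2.03), and line 2 was the lowest in 2.

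The size of the difference depended on the counting. Between lines 16 and 2, the Snord116 sum differed 1.81-fold under nonunique all counting and 2.30-fold with RSEM, but 1.32-fold by unambiguous reads, where the intervals of these lines did not overlap and that of line 5-9 overlapped with both. The 4 highest copies differed 1.97-fold and the other 32 copies 1.46-fold between these lines under nonunique all counting, and 1.31-fold and 1.36-fold by unambiguous reads. For Snord115 the same ratio was 1.298, 3.36 and 1.07 in the 3 tables in that order, and by unambiguous reads the intervals of all 3 control lines overlapped. The line with the most Snord116 was line 16 in each table, and with 1 library per line a difference between lines cannot be told apart from one between libraries.

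Other transcripts of the domain were set beside this order, in which line 2 was lowest and line 16 highest. Snurf, the first cistron of the host transcript, had 3992 normalized counts in line 5-9, 3159.5 in line 2 and 3911 in line 16, so under nonunique all counting line 2 was lowest but line 16 was not above line 5-9. Under nonunique none counting the ratios of Snurf to line 5-9 were 0.703 in line 2 and 1.00 in line 16 (66.5, 46.7 and 66.8 normalized counts in lines 5-9, 2 and 16), which is the same order, with lines 5-9 and 16 nearly level. Snord107, a snoRNA of the domain with 1 copy, had 75.0, 60.6 and 65.7. The Snord64 features ENSRNOG00000055348 and ENSRNOG00000061924 had ratios to line 5-9 of 0.657 and 0.662 in line 2 and 0.938 and 0.934 in line 16 under nonunique all counting. By unambiguous reads ENSRNOG00000055348 had the order of Snord116, with ratios of 0.483 and 1.08, but on normalized counts of only 1.90, 0.916 and 2.05, and ENSRNOG00000061924 had none. The noncoding Ipw feature Ipw_1 had 81.7, 90.0 and 96.5, and Mkrn3, an imprinted gene at the other end of the domain, 77.9, 89.0 and 81.1. Over the 11 tested features of the domain other than the snoRNA repeats, the median ratio to line 5-9 was 0.979 in line 16 and 1.05 in line 2. With RSEM, Ipw_1 and Ipw_2 had the order of Snord116, with ratios of 0.906 in line 2 and 1.81 in line 16, as had Snrpn, with 0.871 and 1.01. Snrpn did not have this order in the other countings. Its ratios were 0.796 and 0.979 under nonunique all counting. Under nonunique none counting they were 1.21 and 0.980 (30.4, 36.7 and 29.8 normalized counts), with line 2 highest and line 16 lowest. The low features Snrpn_U1_1A (6.65, 1.84 and 8.22) and Snrpn_U1_2A (3.80, 1.84 and 4.11) had the order of Snord116 under nonunique all counting. The difference between these features and the Snord116 copies was not tested, because the lines are 3.

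**Figure D4:**
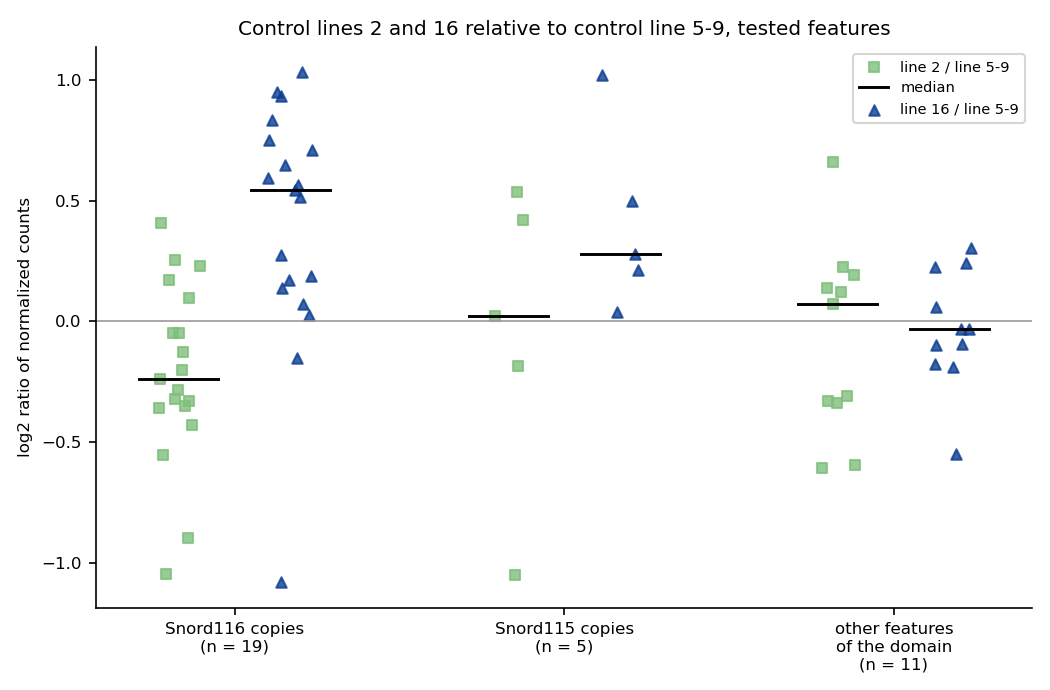
Log2 ratio of normalized counts (nonunique all counting) of control lines 2 and 16 to control line 5-9, for the 19 tested Snord116 copies, 5 Snord115 copies and 11 other tested features of the deleted domain, with 1 marker per feature and bars at the medians. The Snord116 copies lie above 0 in line 16 for 17 of 19 and the Snord115 copies for 5 of 5, and the other features scatter around 0.

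Of the 29 other features of the deleted domain, which were found by name, 6 had no read in any line and 11 passed the filter. The 11 were lower in PWS lines by limma and DESeq2 and 9 by edgeR, beside 0.25%, 0.784% and 0.199% of all features tested. As with the copies, a feature at 0 in every PWS line passed the filter only through its control values and had to differ, so nothing is read from this count. Snurf was at 2.04 in line 3, 0 in line 19-1 and 3.64 in line 19-4 (log2 fold change -10.57, standard error 0.48, limma adjusted p = 2.62e-05), and Snrpn, which overlaps it and shares its reads, stood at the same 2.04, 0 and 3.64. Under nonunique all counting these few reads make Snurf and Snrpn the 2 features of the domain that were not at 0 in every PWS line. Both were at 0 in every PWS line by unambiguous reads. The paper traced a very low Snurf signal by RT-PCR in PWS lines to a pseudogene within the Mon2 gene. Where the few reads here come from was not tested. By unambiguous reads Mkrn3 was at least 26.4-fold lower, Snord107 21.5-fold, Snurf 19.2-fold and Snrpn 10.3-fold. For rno-mir-344a-1, Snrpn_U1_5 and Ipw_3 the bounds were 3.56-fold, 2.96-fold and 1.26-fold. Ipw_1, Ipw_2 and the Snord64 features ENSRNOG00000055348 and ENSRNOG00000061924 allowed no bound. A bound rises with the control level whatever the true fold. With RSEM, Ipw_1 and Ipw_2 were not called (limma adjusted p = 0.0571 for each). Ndn and Magel2 had no read in any line.

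Genes whose proteins make or bind box C/D snoRNAs were examined next, since they serve the lost copies. Of the 13 genes on the list of core proteins and assembly factors, 0 passed the test with limma, DESeq2 or edgeR, and 0 of the 13 had an unadjusted limma p under 0.05, where 11.3% of all features tested had such a p and 0.257% were called in either direction by limma, 0.205% by edgeR and 1.47% by DESeq2. The core proteins are the methyltransferase Fbl, its partners Nop56 and Nop58, and Snu13, which binds the box motifs. The level of Fbl was 2414 in line 5-9, 1882 in line 2 and 2280.1 in line 16, and 2267 in line 3, 2051 in line 19-1 and 2443 in line 19-4, so the groups overlapped (log2 fold change 0.044, standard error 0.11, limma adjusted p = 0.917). Nop56, Nop58 and Snu13 had log2 fold changes of -0.034, 0.0027 and -0.0063. Across the list the values ran from -0.10 for Znhit3 to 0.18 for Znhit6, both assembly factors, with a median of 0.0027. The 6 genes of the H/ACA class of snoRNAs, counted apart, had a median of 0.08, and 0 of them passed.

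Snord116 and Snord115 were set beside the levels of 231 snoRNA features outside the domain, which were found by name, leaving out the protein-coding gene Snorc. Of these, 147 passed the filter and 0 were called by limma, edgeR or DESeq2 (0.257%, 0.205% and 1.47% of all features tested), and 2 had an unadjusted limma p under 0.05 (11.3% of all features tested), with log2 fold changes from -0.46 for SNORD34 (ENSRNOG00000060311) to 1.31 for SNORA73 (ENSRNOG00000054209) and a median of 0.07. Their summed level was 87413 to 96627 normalized counts in control lines and 76053 to 107153 in PWS lines, so the groups overlapped. That SNORA73 copy varied between 307 and 5575 normalized counts among control lines.

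**Figure D5:**
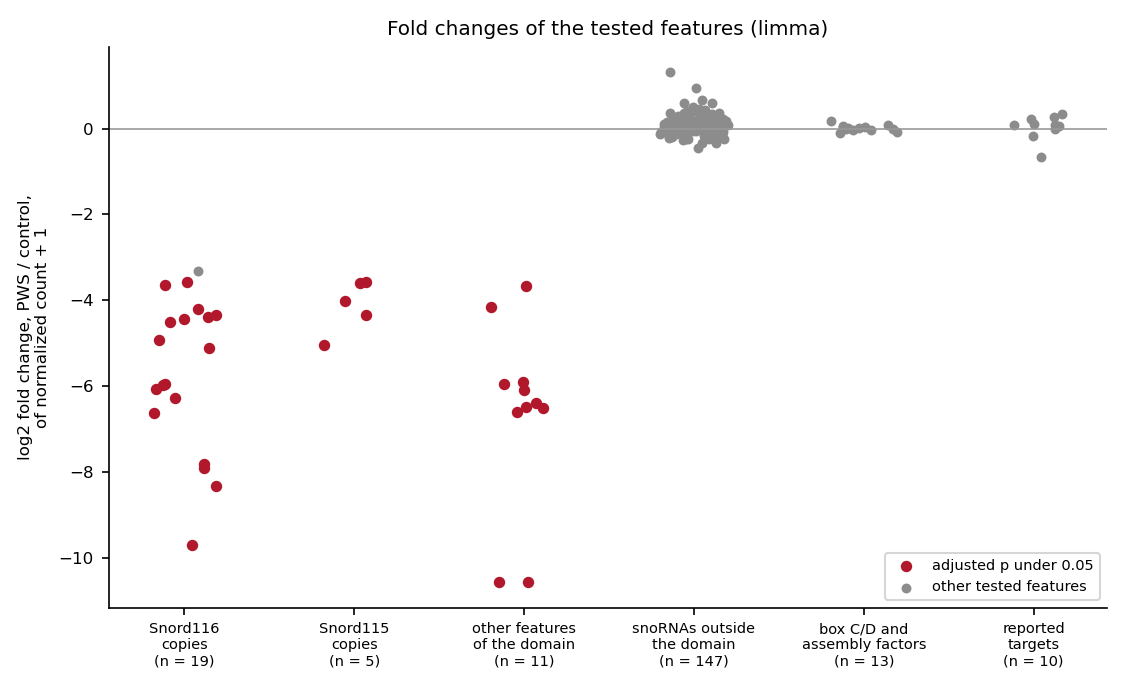
Log2 fold change between PWS and control lines (limma, on normalized count + 1) of the tested Snord116 and Snord115 copies, other features of the deleted domain, snoRNAs outside it, box C/D and assembly factor genes and genes reported as targets or linked to the families (labelled reported targets), with 1 point per feature and red for an adjusted p under 0.05. The copies lie between -9.70 and -3.31, and the snoRNAs outside the domain between -0.46 and 1.31.

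Genes reported as targets of Snord115 or linked to Snord116 were looked up. Of 12 such genes 10 were tested, and 0 passed by limma, edgeR or DESeq2, beside 0.257%, 0.205% and 1.47% of all features tested, with 1 of the 10 at an unadjusted limma p under 0.05, beside 11.3%. Htr2c, the receptor mRNA that Snord115 can pair with, had 1 read in line 16 and 1 in line 19-1 and none elsewhere, so a change in it was not detectable at this depth. Nhlh2, a transcription factor linked to Snord116, had no read in any line. Pcsk1, the prohormone convertase that cleaves proinsulin, was abundant, at 29309.6 normalized counts in line 5-9, 31202 in line 2 and 22142 in line 16, and 28568 in line 3, 32226 in line 19-1 and 21277 in line 19-4 (log2 fold change -0.02, standard error 0.18, limma adjusted p = 0.983). Among the Snord115 targets, values ran from -0.17 for Dpm2 to 0.22 for Crhr1. The list for Snord116 includes the Rbfox genes, whose proteins bind RNA from the Snord116 host transcript and are not its targets. Over that list values ran from -0.67 for Rbfox3 to 0.35 for Rbfox1, which were both low, with at most 95.5 and 24.5 normalized counts. The tables count reads per gene, so the splicing and editing for which Snord115 is known were not measured.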

How the data were processed

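Total RNA of 6 INS-1 lines was sequenced in 75-base pairs after rRNA depletion, with 1 library per line. The authors trimmed reads with cutadapt, aligned them with STAR 2.7.0e to the Ensembl rat genome with custom features, and counted with HTSeq 0.11.2 (nonunique all or none) or RSEM 1.3.1; libraries were stranded (fr-firststrand), and the strand option of the counting is not given in the sources used here. What the authors deposited for each line is a signal: counts scaled by the size factors of DESeq2. The deposited columns of the authors' own comparison (fold changes and p-values) were not used. For both HTSeq countings, 100% of values above 0 were whole multiples of the column's smallest (tolerance 1e-06), from which reads were recovered, and 0 columns were left without a sample. RSEM values gave no whole reads.

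limma 3.58.1 in R 4.3.3 (trend, log2 of value + 1, mean of at least 5, Benjamini-Hochberg, threshold 0.05) was the main test, fitted on all features, with edgeR 4.0.16 and DESeq2 1.42.0 on recovered reads as alternatives; each was tested on simulated data. Copies were named by level (the 8 highest Snord116 and 5 highest Snord115 copies), by nearness to the limit of 3 reads and by unambiguous share (reads kept by nonunique none counting), and lists by their extremes and core members. The members, lists and tests were chosen with earlier results of these data known. Snord64 names come from the study's supplementary table. Small RNA-seq data were not analysed here.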

Additional observations from a re-analysis of the deposited data

How the results depend on the processing

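In every control line and table the directions of both families stayed as reported, and all 95 copies were at 0 in every PWS line. What moved included the number of copies past the limit of 3 reads, tested or called, and the share held by the highest copy. From 18 called Snord116 copies, a mean of at least 50 left 4, nonunique none counting 4 and RSEM 5 (fewer copies passed each filter). From 5 called Snord115 copies, a pseudocount of 5 left 3, edgeR 2, nonunique none counting 2 and averaging lines 19-1 and 19-4 left 3; with RSEM or a mean of at least 50 none could be tested. Leaving out 1 line gave 16 to 17 Snord116 and 2 to 4 Snord115 copies, with 2 without control line 16 and 3 without control line 5-9 or any 1 PWS line. With the replicate number as a block, 3 Snord115 copies were called; same-numbered lines had correlated deviations of only 0.00345 to 0.0467, so they share only a number. The block moved no other count by over 1.5 times.

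Over all features, 40 calls became 9 at a mean of at least 50, 228 with DESeq2 (122 lower), 16 under nonunique none counting and 12 with RSEM. The 11 calls of the other domain features became 2, 5 and 3 at a mean of at least 50, under nonunique none counting and with RSEM. Under nonunique none counting 10 Snord116 and 4 Snord115 copies had more than 3 reads; under nonunique all counting 20 Snord115 copies had more than 1. The share in the highest copy became 69.5% for Snord116 and 36.2% for Snord115 under nonunique none counting, and 24.2% and 16.7% with RSEM.

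With 1 line left out, a step added for this counting after seeing the data, as were the bounds of single copies, the fold bounds of the families by unambiguous reads ranged from 98.6 to 113 for Snord116 and 12.8 to 14.6 for Snord115; the share of the highest copy under nonunique all counting was 36.1% to 38.9% and 24.2% to 24.98%. RSEM values allow no bound. The 3 lists run under the alternatives (box C/D genes, target genes and snoRNAs outside the domain) gained no call under any of them. With 1 line left out, the uncalled values ran from 0.50 to 2.81 for SNORA73, -0.57 to -0.26 for SNORD34, -0.93 to -0.30 for Rbfox3, 0.11 to 0.51 for Rbfox1, -0.20 to -0.055 for Znhit3 and 0.064 to 0.26 for Znhit6. Genes near 0 changed sign without passing the test: log2 fold changes ran from -0.17 to 0.64 for Crhr1, -0.062 to 0.12 for Fbl, -0.11 to 0.050 for Nop56, -0.057 to 0.066 for Nop58 and -0.11 to 0.10 for Snu13, and Snu13 stood at 0.015 with lines 19-1 and 19-4 averaged.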
